A study of Saccharomyces cerevisiae W303 with 3 samples.

Results

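The cytosolic small-subunit ribosomal protein genes (RPS genes) of Saccharomyces cerevisiae were taken as all gene probes whose name is RPS followed by digits and, where present, the letter A or B, which gave 56 of the 6252 genes on the array. They encode the proteins of the 40S subunit, and 24 of the proteins have an A and a B copy (paralogs left from the ancient duplication of the yeast genome), while 8 have a single gene. RNA was compared between 40 and 240 generations of growth of the wild-type haploid strain W303, given in the study's methods as MATa with mutations in LEU2, TRP1, CAN1, URA3, ADE2 and HIS3. Each of the 3 cultures (Replicates 1 to 3) was started from a single colony and kept at 30 °C in minimal medium with glycerol as the main carbon source at a dilution rate of 0.17 to 0.18 volumes per hour. Both time points of a culture therefore share strain, medium and vessel, and the early time point served as the control. A replicate is 1 culture. For the evolved populations, the study describes mutations in HOG1 and MSY1 in Replicate 1, HOG1 and URE2 in Replicate 2 and MSY1 in Replicate 3. It reports no mutated gene common to all cultures.

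The 40S subunit binds the mRNA and reads its codons, and its proteins hold the 18S rRNA in a head, a body and a platform. Budding yeast makes these proteins in near equal numbers from genes that are among the most strongly transcribed in growing cells. Their transcription depends on Rap1, Fhl1, Ifh1 and Sfp1, which respond to nutrients through the TORC1 and protein kinase A pathways, and their mRNAs are known to decline together when growth slows. Paralogs encode identical or nearly identical proteins, but often differ in promoter, intron and expression level.

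Each culture was measured on 2 arrays with the dyes exchanged, so the 6 arrays gave 3 independent log2 ratios per gene, where a negative value means that less RNA was present at the late time point. Dye-swapped arrays correlated across all genes with r = 0.95 to 0.96, and across RPS genes with r = 0.88 to 0.93. The median difference between the 2 arrays of a culture for an RPS gene was 0.11 to 0.12 on the log2 scale. No RPS spot was saturated, and 1 to 3 of the 112 RPS spots on an array were not found by the scanner software. For the actin gene ACT1, a common reference, the log2 ratio averaged 0.02 ± 0.11 over the cultures (SD, n = 3; limma, adjusted p = 0.909). The markers went against the stated mating type. Of 6 a-specific genes only STE6 was above background on all arrays, and MFA2 and AGA2 were on none, whereas all 4 α-specific genes were above background on all arrays and 3 of them were higher at 240 generations. Shares of cells and RNA per cell cannot be told apart in such population samples, and the array reads each RNA relative to the rest, so an equal change of all RNAs would not be seen.

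Most RPS mRNAs were less abundant after 240 generations, and none was more abundant by the test. Of the 56 genes, 55 passed the filter on dim probes, and 30 of these were lower at 240 generations at an adjusted p below 0.05 (limma, Benjamini-Hochberg over the 5504 genes tested). This is 54.5% of the tested RPS genes, against 13.7% of all genes tested that were called lower. None of the 55 was called higher, against 14% of all genes, and the other 25 did not pass. At an unadjusted limma p below 0.05, 43 were lower and 0 were higher, against 1228 lower and 1164 higher of all 5504 genes tested. The median log2 ratio of the 55 genes was -0.60 (quartiles -0.83 and -0.38), beside -0.01 for all genes tested. The means ran from -2.21 to 0.04, and 52 of 55 were below 0. A fall of at least 2-fold was measured in 7 of the 30 called genes, and in 177 of the 753 called lower among all genes. The number of calls depended on which cultures entered: leaving out Replicate 1 gave 48, leaving out Replicate 2 gave 5 and leaving out Replicate 3 gave 13. The share of all genes called lower moved as well, to 22.7%, 3% and 6.83% in the same order. The calls without Replicate 2 were all among the 30, and RPS18B and RPS14B were among them.

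**Figure D1:**
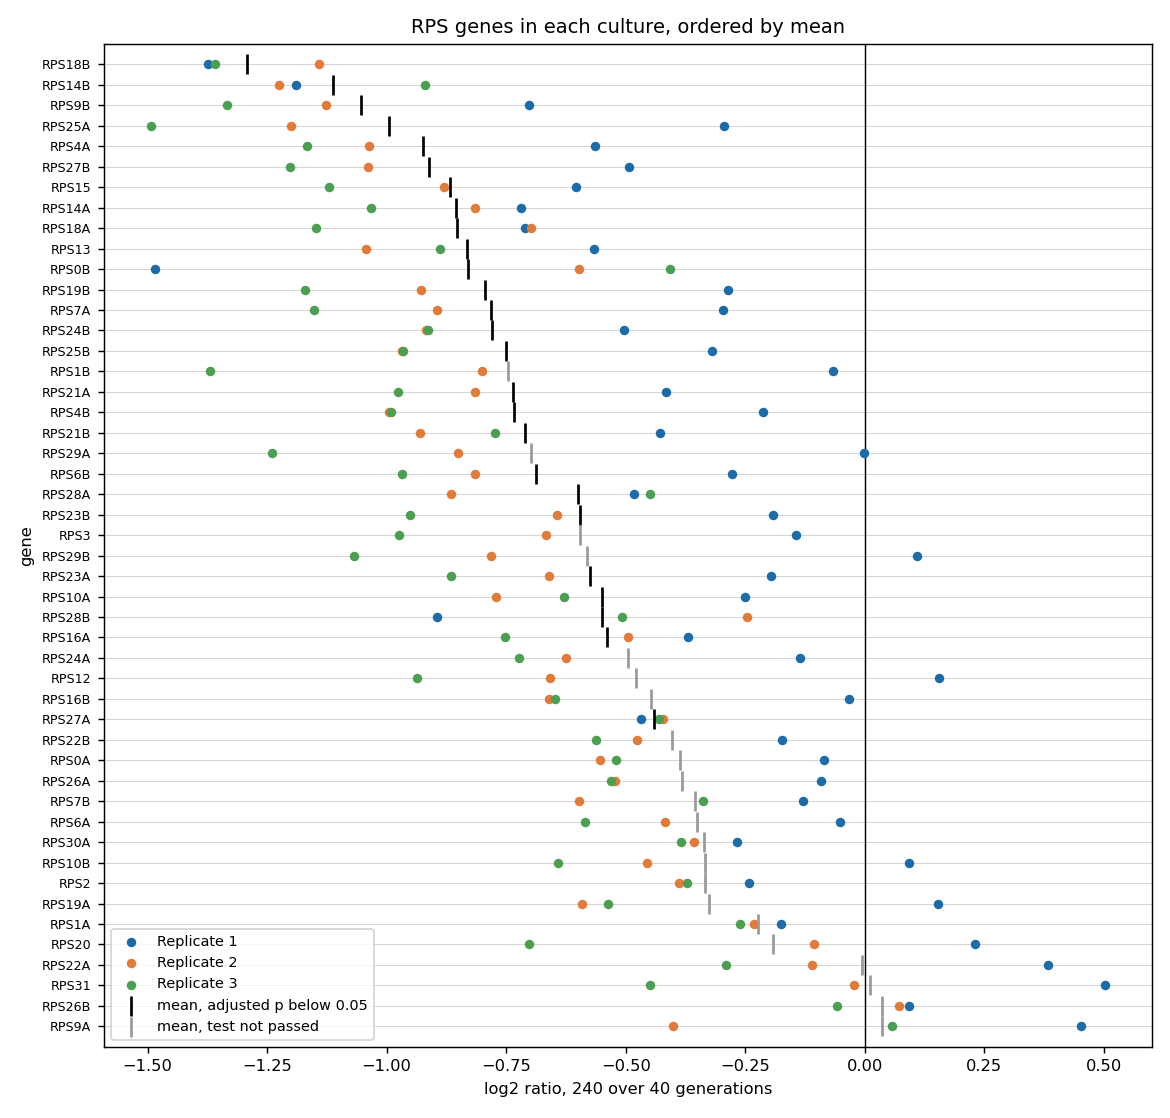
Log2 ratio of 240 over 40 generations (horizontal axis) of 48 of the 55 tested RPS genes (vertical axis, ordered by their mean) in Replicates 1, 2 and 3 (colored points), with the mean as a black tick where the limma test was passed and a gray tick where it was not. Ticks run from -1.29 for RPS18B to 0.04 for RPS9A, and the Replicate 1 point is the rightmost of the 3 in 41 of these genes.

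The size of the difference varied with the culture. The median log2 ratio of the 55 RPS genes was -0.25, -0.68 and -0.87 in Replicates 1, 2 and 3, while the median of all genes tested stayed between -0.02 and 0.00. Values below 0 were found for 44 RPS genes in Replicate 1 and for 54 in each of the other cultures, and 44 genes were below 0 in all cultures. Replicate 1 thus gave the weakest shift: it held the highest of the 3 values in 46 genes and the lowest in 5. The lowest value came from Replicate 3 in 34 genes and from Replicate 2 in 16. In all 25 genes that did not pass, Replicate 1 held the highest value, and there its values lay between -0.27 and 0.50. The SD over cultures had a median of 0.32 in RPS genes and of 0.21 in all genes tested. Across RPS genes, which are not independent replicates and were read on the same arrays, the log2 ratios of Replicates 2 and 3 correlated with r = 0.85, those of Replicates 1 and 2 with r = 0.67, and those of Replicates 1 and 3 with r = 0.58. Across all genes tested, the difference of Replicate 1 from the mean of the other cultures was negatively related to the length of the gene (Spearman's rho -0.37), and across RPS genes rho was -0.13. Length here is the span of the gene with any introns, not the length of its mRNA. By this measure RPS genes had quartiles of 593 and 897 bp. The 825 non-ribosomal genes between these lengths had medians of 0.21, 0.09 and 0.01 in the same order of cultures, so the difference of Replicate 1 from the others had a median of 0.16 in them and of 0.48 in RPS genes. After correction of each culture for a trend on gene length, 37 RPS genes were lower, 28 of them among the 30 called before. Of the 5347 genes then tested, 15.3% were called lower, against 13.7% without the correction. The part of gene length in the culture difference was not tested further, and mRNA length was not examined.

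The 81 genes of the large subunit (RPL and RPP) gave nearly the same picture, and values of both subunits are set side by side without a test between them. Of 80 tested, 40 were lower and 0 higher, with a median of -0.60. Their medians by culture were -0.27, -0.68 and -0.78 in Replicates 1, 2 and 3. Non-ribosomal genes of like signal strength, 1804 in number, had a median of 0.01. The 264 that lay between the RPS quartiles in both gene length and signal had a median of 0.14. Of them, 9.85% were called lower and 23.9% higher. RPS genes outside these quartiles had no such set beside them.

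**Figure D2:**
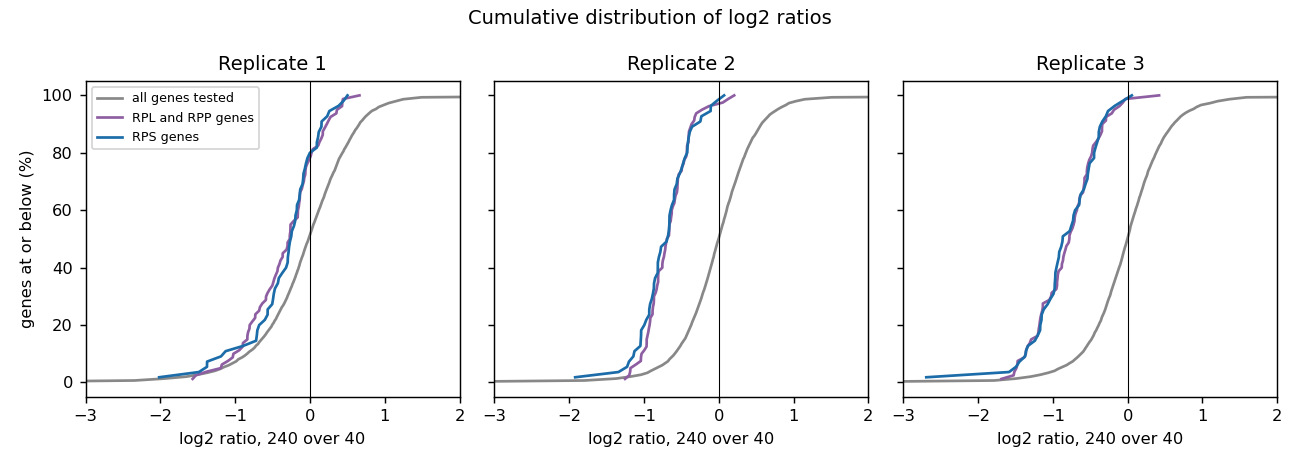
Cumulative share of genes (vertical axis, percent) at or below a log2 ratio of 240 over 40 generations (horizontal axis) in each culture, for the 55 RPS genes, the 80 RPL and RPP genes and all 5504 genes tested. The RPS and RPL curves lie close together and left of the curve of all genes, with RPS medians of -0.25, -0.68 and -0.87 in Replicates 1, 2 and 3.

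Among the genes with the lowest means was RPS18B (YML026C), for uS13, the head protein that makes a bridge to the large subunit. Its log2 ratio was -1.37, -1.14 and -1.36 in Replicates 1, 2 and 3. The cultures differed little in this gene, and its mean of -1.29 ± 0.13 (SD, n = 3) was a 2.45-fold fall (adjusted p = 0.00299). RPS14B (YJL191W), for uS11 of the platform, followed with -1.19, -1.23 and -0.92 (mean -1.11 ± 0.17, adjusted p = 0.00478). Here Replicate 3 was the highest of the cultures, which was the case for 3 RPS genes. RPS9B (YBR189W), for uS4, a body protein close to the entry of the mRNA channel, had -0.70, -1.13 and -1.33 (mean -1.05 ± 0.32, adjusted p = 0.00948). This gene followed the common order, with the least change in Replicate 1 and the greatest in Replicate 3. RPS25A (YGR027C), for eS25, a head protein known for its role in initiation at internal ribosome entry sites, had -0.30, -1.20 and -1.49 (mean -0.996 ± 0.62, adjusted p = 0.0321). RPS9B lost its call without Replicate 2, and RPS25A lost it without Replicate 2 or without Replicate 3.

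At the other end, 4 genes had means near 0, and none of them passed the test. RPS22A (YJL190C), for uS8 of the body, had 0.38, -0.11 and -0.29 in Replicates 1, 2 and 3 (mean -0.01 ± 0.35, adjusted p = 0.981). RPS31 (YLR167W), whose product is made as a fusion of ubiquitin with eS31, had 0.50, -0.02 and -0.45 (mean 0.01 ± 0.48, adjusted p = 0.971). In both, the cultures straddled 0, again with Replicate 1 as the highest. RPS26B (YER131W), for eS26 at the exit of the mRNA channel, had 0.09, 0.07 and -0.06. Its mean of 0.03 ± 0.08 (adjusted p = 0.83) came from 3 close values, each close to 0. RPS9A (YPL081W), the copy of RPS9B, had 0.45, -0.40 and 0.06 (mean 0.04 ± 0.43, adjusted p = 0.90).

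Among the 8 single-copy genes, 2 passed the test as lower, with a median log2 ratio of -0.44 over the 8, and among the 47 tested genes with a copy 28 passed, with a median of -0.60. RPS15 (YOL040C), for uS19 of the head, which is needed for export of the precursor subunit from the nucleus, had -0.60, -0.88 and -1.12 in Replicates 1, 2 and 3. Its mean of -0.87 ± 0.26 (adjusted p = 0.0115) was the lowest of the single-copy genes, and the call was lost without Replicate 2. RPS13 (YDR064W), for uS15 of the body, was the other gene that passed, at -0.83 ± 0.24 (adjusted p = 0.0119). RPS31 was the highest of the single-copy genes. RPS3, for uS3, and RPS2, for uS5, both at the entry of the mRNA channel, had -0.60 ± 0.42 (adjusted p = 0.0558) and -0.33 ± 0.08 (adjusted p = 0.0685). RPS12, for eS12, had -0.48 ± 0.57 (adjusted p = 0.151), and RPS20, for uS10, had -0.19 ± 0.47 (adjusted p = 0.475). In RPS12 and RPS20, both for head proteins, Replicate 1 was above 0 and the other cultures were below it. RPS13 and the single-copy genes other than RPS15 and RPS31 were named after their values were seen.

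The place of the protein in the subunit divided the calls little. Of 22 genes for head proteins 11 were lower (median -0.57), and of 33 genes for body and platform proteins 19 were lower (median -0.69). Of 24 genes for proteins shared with bacteria 12 were lower (median -0.59), and of 31 genes for proteins not shared with bacteria 18 were lower (median -0.60). A copies and B copies gave 13 of 24 and 15 of 23 lower, with medians of -0.54 and -0.73. The differences between these groups were not tested.

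RPS30B (YOR182C), for eS30, was the gene left out of the tests. At 40 generations 1 of 6 arrays gave a signal above background and at 240 generations 0 of 6 did, so its measured log2 ratios of -0.09, -0.32 and -0.11 set no level. RPS30A was above background on all arrays and had a log2 ratio of -0.34 ± 0.06 (limma, adjusted p = 0.0646). Its log2 signals, 7.10 to 7.63, were close to the 6.54 to 6.86 of RPS30B, so this ratio was also read near the floor. Every other RPS gene exceeded background on 6 arrays at the early and on 5 or 6 arrays at the late time point.

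The paralogs were compared by the difference of their log2 ratios, B minus A, within each culture, which was tested with limma over the 59 A and B pairs of any family that passed the filter. In 3 of 23 RPS pairs the copies differed at an adjusted p below 0.05. This share is close to the 16.9% of all 59 pairs that were called. Of the 34 pairs of RPL and RPP genes 7 were called, and of the remaining pairs, NHP6 and COX5, none. The 59 pairs thus include the RPS pairs and are nearly all ribosomal, so they give no background from other families. At an unadjusted p below 0.05, 11 RPS pairs differed, and in 14 of 23 the difference had the same sign in all cultures. The median absolute difference was 0.40 in RPS pairs and 0.25 in RPL and RPP pairs. Both copies were called lower in 9 pairs, only the A copy in 4, only the B copy in 6 and neither in 4. The B copy had the more negative mean in 12 pairs and the A copy in 11, so there was no common direction. Across the 23 pairs the mean log2 ratios of the A and B copies correlated with r = 0.10, as a description of genes read on the same arrays. Paralogs are close in sequence, and cross-hybridization between their probes was not tested.

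**Figure D3:**
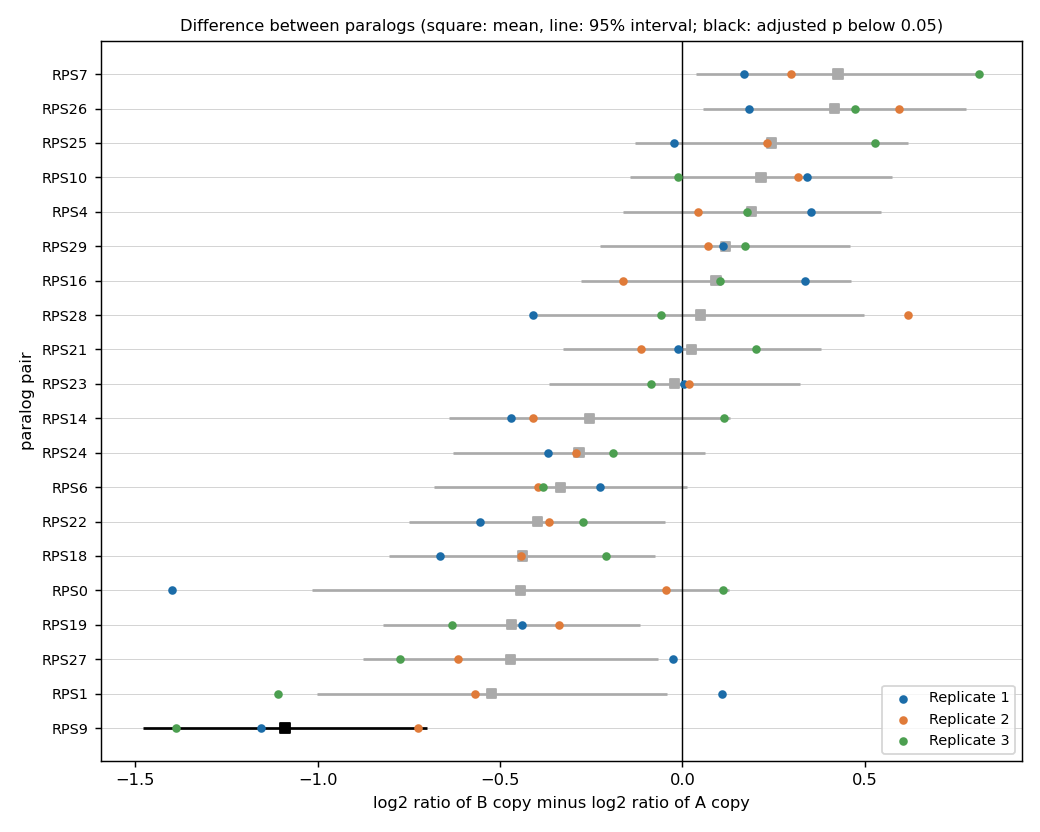
Difference between the log2 ratios of the B and the A copy (horizontal axis) in 20 of the 23 tested RPS pairs (vertical axis), with each culture as a colored point, the mean as a square and the 95% interval from limma as a line, black where the adjusted p was below 0.05. RPS9 lies at -1.09 with all cultures below 0, and the other 19 pairs shown did not pass.

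RPS9 was among the called pairs, with a called fall of the B copy and an A copy near 0. The difference B minus A was -1.15, -0.73 and -1.39 in Replicates 1, 2 and 3 (mean -1.09 ± 0.34, 95% interval -1.48 to -0.70, adjusted p = 0.00153). The log2 signal of RPS9B went from 12.71, 12.83 and 13.45 at 40 generations to 12.01, 11.70 and 12.12 at 240 generations. The log2 signal of RPS9A went from 8.80, 8.86 and 8.78 to 9.25, 8.45 and 8.83, so that RPS9B separated the time points and RPS9A did not. The RPS9 difference was called without each of the replicates in turn. It was not called when the time points were treated as 3 unpaired samples each (adjusted p = 0.119), and none of the 23 RPS pairs was called then.

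**Figure D4:**
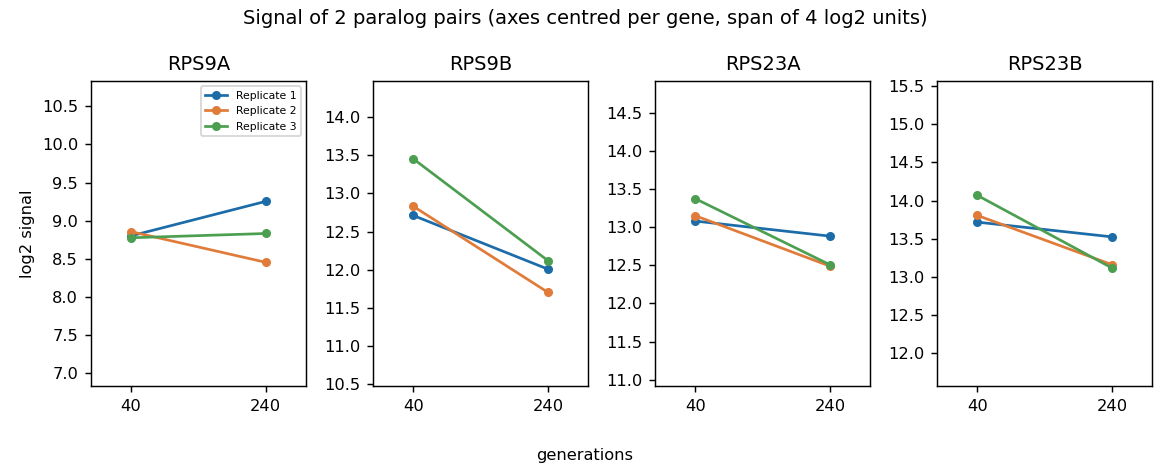
Log2 signal (vertical axes, centred on each gene and spanning 4 log2 units) at 40 and 240 generations (horizontal axes) in Replicates 1, 2 and 3 for the copies of RPS9, a called pair, and of RPS23, the pair with the smallest mean difference. All lines fall for RPS9B and for both copies of RPS23, whereas those of RPS9A spread from about the same level.

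In all, 20 of the tested pairs did not pass, and their 95% intervals reached 0.34 to 0.57 to each side of the mean. The pairs named from here on were chosen after their values were seen. RPS19, for eS19 of the head, whose human counterpart is mutated in Diamond-Blackfan anemia, had differences of -0.44, -0.34 and -0.63 in Replicates 1, 2 and 3 (mean -0.47 ± 0.15, adjusted p = 0.0673). This pair kept its sign in every culture, and its B copy was called lower and its A copy was not. The RPS19B log2 ratio differed with the dye. It was -0.53, -1.17 and -1.47 with the 240-generation RNA in Cy3, and -0.04, -0.69 and -0.87 with it in Cy5. Among the alternatives, the RPS19 difference passed on the Cy3 arrays alone and without Replicate 1. On the Cy5 arrays alone it did not pass.

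In other pairs the difference lay in particular cultures. RPS0, for uS2, differed by -1.40 in Replicate 1 and by -0.04 and 0.11 in Replicates 2 and 3. This came from RPS0B, which had log2 ratios of -1.48, -0.60 and -0.41, the lowest in the culture where most RPS genes were highest (mean -0.83 ± 0.57, adjusted p = 0.0431). RPS1, for eS1 of the platform, differed by 0.11, -0.57 and -1.11. The B copy of RPS28, for eS28, was dim, with log2 signals of 7.16 to 8.73. At 240 generations it exceeded background on 5 of 6 arrays. RPS28 differed by -0.41, 0.62 and -0.06, so its mean of 0.05 covered opposite signs. In contrast, RPS29, for uS14, differed by 0.11, 0.07 and 0.17, and its 95% interval ran from -0.23 to 0.46.

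The closest pair was RPS23, for uS12, the protein of the decoding center. Its means were -0.57 for the A copy and -0.60 for the B copy. Both were called lower, close to the threshold (limma, adjusted p = 0.0449 and 0.0477). Each of these calls was lost without Replicate 2 and without Replicate 3. The log2 signal of RPS23B went from 13.72, 13.81 and 14.07 at 40 generations to 13.52, 13.16 and 13.12 at 240 generations, and that of RPS23A from 13.08, 13.15 and 13.37 to 12.88, 12.49 and 12.51. In neither copy did the time points overlap. The difference between the copies was -0.02 ± 0.06 with a 95% interval from -0.37 to 0.32. RPS21, for eS21, had -0.74 and -0.71, both called lower, and a difference of 0.02 ± 0.16 with an interval from -0.33 to 0.38. The means of the copies differed by less than 0.3 in 10 of the 23 pairs. RPS27 showed how a small fall could pass where the cultures were close. RPS27A had -0.47, -0.42 and -0.43 (mean -0.44 ± 0.02, adjusted p = 0.0318), the smallest fall among the 30 called genes, while RPS1B, with a mean of -0.75 ± 0.65, was not called (adjusted p = 0.0723, unadjusted p = 0.0247 with limma).

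Of 11 genes for regulators of ribosomal protein genes, 3 were lower at 240 generations, 0 were higher and 8 did not pass, with a median of -0.15, beside 13.7% of all genes tested that were called lower. IFH1, the coactivator that joins Fhl1 at these promoters in growing cells, had log2 ratios of -0.81, -1.02 and -0.43 in Replicates 1, 2 and 3 (mean -0.75 ± 0.30, adjusted p = 0.0189). CRF1, described as a corepressor that can take the place of Ifh1, had -0.96, -0.43 and -0.79 (mean -0.73 ± 0.27, adjusted p = 0.0184). Whether Crf1 acts in this way in W303 was not examined here. Genes for an activator and for a described corepressor were thus among those called. SFP1, a nutrient-controlled activator, had -0.40, -0.45 and -0.37 (mean -0.41 ± 0.04, adjusted p = 0.039). None of these genes followed the order of the cultures seen in the RPS genes. All of these calls were lost without Replicate 2, and those of CRF1 and SFP1 also without Replicate 3.

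Of 9 genes for proteins that bind 40S proteins or help to assemble them, 2 were lower, 0 higher and 7 did not pass, with a median of -0.01. Against the 13.7% of all genes tested that were called lower, a count of 2 of 9 is near the background. ASC1, which encodes the scaffold protein on the head of the 40S subunit (RACK1 in mammals), had -0.31, -0.65 and -0.52 (mean -0.49 ± 0.17, adjusted p = 0.0334). TSR4, which encodes an assembly factor that binds Rps2, had -0.45, -0.39 and -0.31 (mean -0.39 ± 0.07, adjusted p = 0.0469). ASC1 shared with the RPS genes a value nearest to 0 in Replicate 1, and TSR4 did not. Both calls were lost without Replicate 2 and without Replicate 3.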

How the data were processed

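The authors extracted spot and local background intensity in GenePix Pro 6.1, with no normalization, and deposited it together with the saturated pixels of each spot in percent and a flag. The log2 ratios deposited by the authors were made in Acuity 4.0 by a normalization not named in the sources used here, and were used as an alternative. They correlated with the values used here at r = 0.97, 0.98 and 0.98 in Replicates 1, 2 and 3, leaving out values of exactly 0.

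In R 4.3.3 with limma 3.58.1, medians were corrected with normexp (offset 50) and each array with loess, control spots at weight 0. The 2 spots of a gene and the 2 dye-swap arrays of a culture were averaged with signs turned to 240 over 40 generations. Genes whose signal exceeded background by over 2 background SDs at a time point on at least 4 arrays entered limma's lmFit and eBayes test of a log2 ratio of 0 (prior degrees of freedom 3.70), with Benjamini-Hochberg adjustment at 0.05. Pairs were fitted likewise (prior degrees of freedom 8.71). Log2 signals are per-channel values after loess and Aquantile, and have no order between genes. 4 genes with empty lines were left out. The scripts were tested on simulated data. The number of arrays limits the precision.

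Time points were paired by design, since replicate numbers name cultures and both samples share arrays; deviations of same-numbered samples correlated with r = 0.09, 0.76 and 0.71 in Replicates 1, 2 and 3. RefSeq (assembly R64) gave the length, the span of the gene with any introns, for 5753 of 6252 genes, including the 56 RPS genes.

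Members, lists, tests and alternatives were chosen with earlier results of these data known. Named are the 8 lowest and 4 highest RPS genes by mean, both genes of each called pair, the lowest and highest single-copy gene, members below background on all arrays of a time point, called members of the other lists and ACT1. Some RPS genes and pairs are not reported here by name or drawn singly; they stay in all fits, counts, medians and ranges. Alternatives were 2 other background corrections, the pixel mean, median centring, loess without ribosomal protein spots and scaling between arrays. Others left out spots not found or saturated, used no filter, or took each dye orientation or 6 arrays with a dye term. The rest were a trended and robust prior, unpaired time points, each replicate left out, the deposited ratios and a length correction. For an exact sign-flip test of pairs only the lowest possible p was worked out. qRT-PCR and genome sequences were not analysed here.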

Additional observations from a re-analysis of the deposited data

How the results depend on the processing

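With 30 RPS genes called lower, leaving out each replicate gave 5 to 48 calls (48 without Replicate 1, 5 without Replicate 2, 13 without Replicate 3). No replicate block, that is, unpaired time points, gave 10, all of them among the 30. Of all genes tested, 22.7%, 3% and 6.83% were called lower without Replicates 1, 2 and 3, and 4.41% with no replicate block. The 3 called pairs became 3 to 7 with a replicate left out (7 without Replicate 1) and 0 with no replicate block. The cause of these shifts was not tested. The other alternatives gave 24 to 40 lower RPS genes and 3 or 4 pairs, with 11.1% to 18% of all genes called lower. No RPS gene was called higher under any alternative. Over all alternatives, those with a replicate left out included, the median log2 ratio of RPS genes lay between -0.80 and -0.43. Median centring moved the median of all genes from -0.01 to -0.07 and their split from 753 lower and 769 higher to 992 and 649, with 40 RPS genes lower. Of 437 values of 23 named genes and pairs under alternatives, 404 stayed on their side of the threshold and 33 no longer passed it. The 404 include 26 uncalled values that changed sign, and no called value did so. RPS18B was called under all 19 alternatives. An exact sign-flip test of a pair over 3 cultures cannot go below a two-sided p of 0.25 and was not run. The 3 cultures limit what can be called, and dim genes (RPS30B) have no usable ratio.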
